A study of Mus musculus with 12 samples.

Results

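Round-headed sperm, or globozoospermia, arise when the acrosome fails to form, and mice that lose Agfg1, Csnk2a2, Gopc, Pick1, Zpbp, Spaca1 or Hsp90b1 show it, as do males with the Wobbler mutation. These 7 genes were chosen by name from that shared phenotype, with earlier results of these data known. Of the 7, 4 had a probe: Agfg1 with 2 probes, Csnk2a2 with 4, Spaca1 with 1 and Hsp90b1 with 1, which makes 8 of 20355 probes and 4 of 9930 named genes. Gopc, Pick1 and Zpbp were not analysed here.

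The acrosome is a secretory vesicle that caps the sperm nucleus. It is built in round spermatids from vesicles that leave the Golgi apparatus, fuse on the nuclear envelope and spread over it while the nucleus elongates. The Wobbler mutation changes 1 amino acid of Vps54, which belongs to a complex that tethers vesicles returning to the Golgi. Among the listed genes, Agfg1 encodes a protein on the cytosolic face of the proacrosomal vesicles that is needed for their fusion. Csnk2a2 encodes a catalytic subunit of casein kinase 2 that is abundant in testis. Spaca1 encodes a membrane protein of the acrosome, and Hsp90b1 the Hsp90 chaperone of the endoplasmic reticulum. Gopc and Pick1 are adaptor proteins of the Golgi and its vesicles, and Zpbp is a protein of the acrosome. No probe was named for Vps54.

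Testis RNA was hybridised to 12 two-colour arrays, each of which held 2 pools. Each pool was RNA of 3 males on a Castaneus background, and the mice were Wobbler mice carrying a modifier, Wobbler mice, or wildtype mice. The 3 comparisons, Wobbler over wildtype, Wobbler with modifier over wildtype and Wobbler with modifier over Wobbler, had 4 arrays each, with the dyes exchanged on replicates 3 and 4. The labels do not tell whether separate pools were used from array to array, so the p-values cover array-to-array spread and that spread may be only technical. The labelling protocol also speaks of a reference pool of 6 control animals, which differs from the channel labels used here to assign genotypes. The files hold 1 log2 ratio per spot and give no level of a gene in a genotype, so genes are compared by ratio only. The direction of the ratio is not stated. Reading it as Cy5 over Cy3, and so changing the sign on replicates 3 and 4, is likely, because the 3 comparisons then close as a loop better than otherwise. All signs given here rest on that reading. Each array held 18325 to 19584 usable spots, and replicate 2 of Wobbler over wildtype stood apart from the others, with 13.9% of its log2 ratios above 2.

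The promoters of the measured genes, taken from RefSeq (GRCm38.p6) for all 4, share the GC box and differ in other motifs. The window of 300 bases runs from 250 bases before to 50 bases after the start site used for each window, which is not always the listed start of the gene. The Agfg1 window (chr1:82839210-82839509, plus strand) lies inside the gene, which is listed from 82839017. What is said of Agfg1 therefore does not cover the bases before that listed start. The promoters of Spaca1 (chr4:34050016-34050315, minus strand) and Hsp90b1 (chr10:86705395-86705694, minus strand) are printed because one gene belongs to spermatids and the other to the protein-folding machinery of most cells. Capitals mark TGACG, the short form of the site read by the spermatid activator CREM, and the endoplasmic reticulum stress element, which is CCAAT, then 9 bases of any kind, then CCACG. Both strands were searched.
Spaca1: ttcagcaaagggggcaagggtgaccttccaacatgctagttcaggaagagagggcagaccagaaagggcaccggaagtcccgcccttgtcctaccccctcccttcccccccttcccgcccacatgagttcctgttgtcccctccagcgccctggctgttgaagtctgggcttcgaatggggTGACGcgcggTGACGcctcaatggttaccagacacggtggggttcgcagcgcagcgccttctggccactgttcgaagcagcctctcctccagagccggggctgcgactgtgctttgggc
Hsp90b1: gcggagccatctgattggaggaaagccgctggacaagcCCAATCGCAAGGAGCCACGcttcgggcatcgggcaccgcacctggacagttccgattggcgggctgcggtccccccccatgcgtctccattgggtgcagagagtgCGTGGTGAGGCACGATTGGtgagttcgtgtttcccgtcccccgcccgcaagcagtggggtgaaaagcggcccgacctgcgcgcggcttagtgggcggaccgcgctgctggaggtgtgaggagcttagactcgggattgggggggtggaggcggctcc
The Spaca1 window held TGACG 2 times, at 69 and 59 bases before the start site, and the Hsp90b1 window held none. Another Spaca1 window (chr4:34050018-34050317, minus strand) held the same 2 matches, at 67 and 57 bases before its start site. Of 32841 promoter windows of the same length, 20.8% held TGACG. The Hsp90b1 window held the stress element 2 times, at 212 and 107 bases before the start, against 0.119% of all windows with at least 1. The element contains CCAAT, which stood in the Hsp90b1 window 6 times and in 37.4% of all windows. Neither Agfg1 nor Csnk2a2 held TGACG or the stress element. GGGCGG, the GC box, stood in all 4 windows, 3 times in Csnk2a2 and 2 times in each of the others, and in 35.7% of all windows. CG dinucleotides numbered 30 in Csnk2a2, 27 in Hsp90b1, 22 in Agfg1 and 16 in Spaca1, against a median of 7 over all windows. Such matches describe the letters and no site or cause.

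None of the 4 measured genes passed a Benjamini-Hochberg adjusted p of 0.05 with limma in any comparison. Over all 14729 features tested, 0.306% passed in Wobbler over wildtype, 0.733% in Wobbler with modifier over wildtype and 0.414% in Wobbler with modifier over Wobbler. At an unadjusted p under 0.05 stood 2 of the 4 genes in Wobbler over wildtype, against 15.7% of all features, and Spaca1 in each of the others, against 7.33% and 11.5%. A failed test does not show that the ratios were 1, and intervals are given for each gene. Spaca1 was the gene whose ratio lay on one side of 0 on every array of a comparison that held the modifier. The fitted ratios of Agfg1 and Csnk2a2 lay above 0 in Wobbler over wildtype. For Agfg1 the highest value was 1 probe on replicate 2, and for Csnk2a2 the highest values were 1 probe on replicates 3 and 4.

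**Figure D1:**
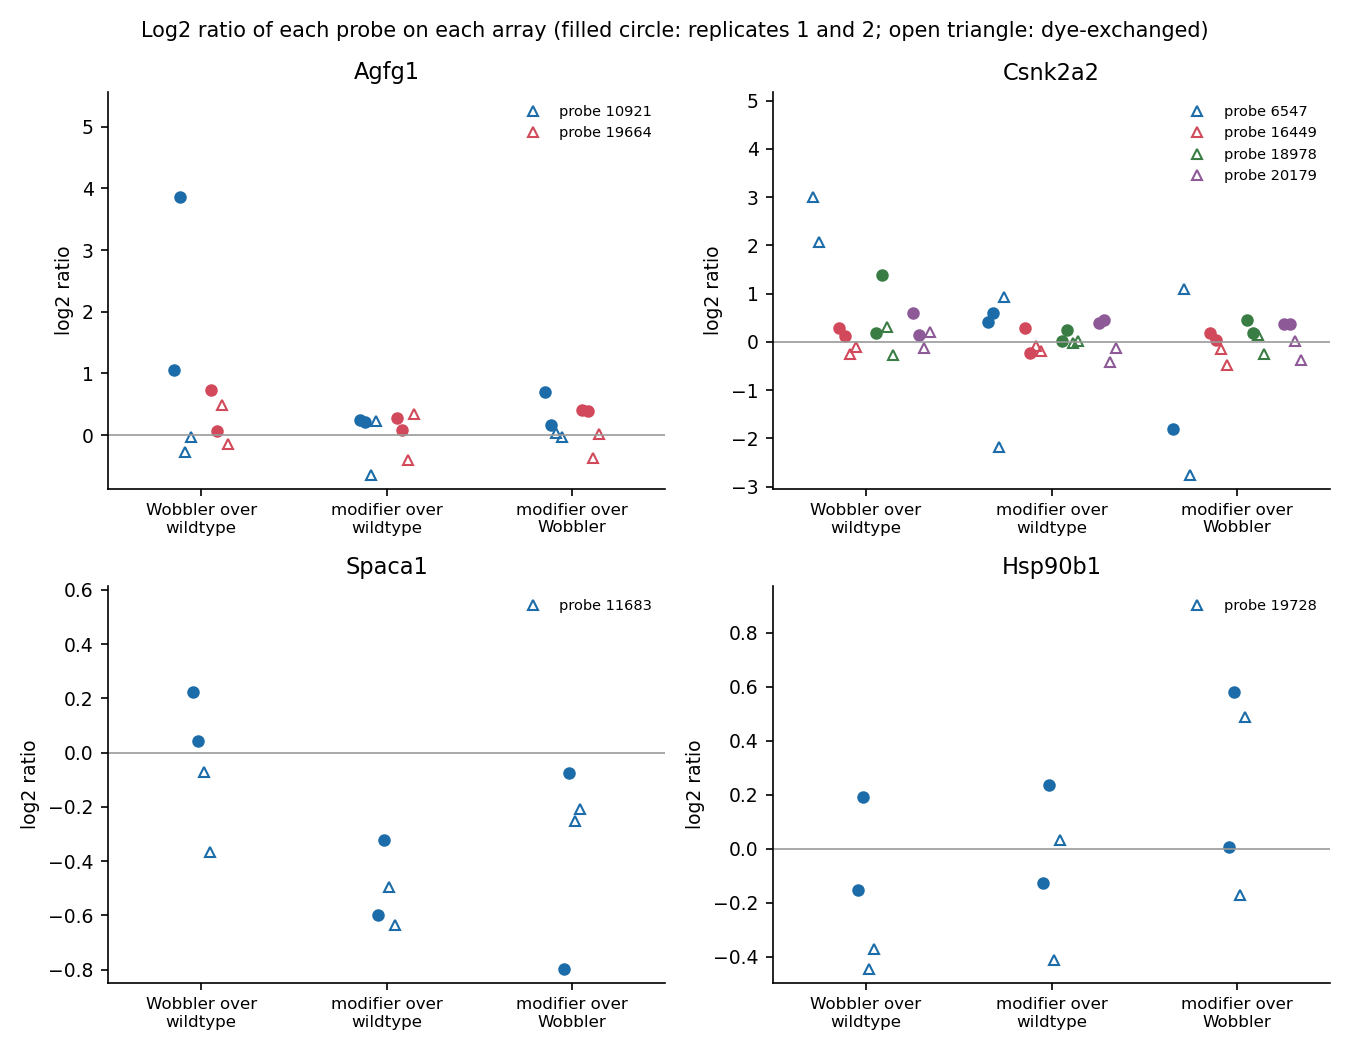
Log2 ratio (vertical axis) of each probe of Agfg1, Csnk2a2, Spaca1 and Hsp90b1 on each array, by comparison (horizontal axis, where modifier stands for Wobbler with modifier). Filled circles are replicates 1 and 2, open triangles the dye-exchanged replicates 3 and 4; the Spaca1 points lie below 0 on all arrays with the modifier, and Csnk2a2 probe 6547 spreads from -2.75 to 3.0.

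Spaca1, the acrosomal membrane protein, had log2 ratios of -0.598, -0.321, -0.494 and -0.637 on replicates 1 to 4 of Wobbler with modifier over wildtype. All 4 arrays lay below 0 in both dye orientations, as did 10.4% of the features measured on all 4. The fitted ratio was -0.51 ± 0.14 (SE, n = 4), or 0.701-fold, with a 95% interval of 0.563 to 0.873. Its adjusted p with limma was 0.22 and its unadjusted p 0.00481, which ranked it at 320 of 14729 features. In this comparison 7.33% of all features had an unadjusted p under 0.05, and 4.72% had a lower ratio than Spaca1. The means of the dye orientations were -0.46 on replicates 1 and 2 and -0.57 on replicates 3 and 4.

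The call of Spaca1 in that comparison depended on how the arrays were scaled and weighted. With arrays scaled to equal spread the ratio was -0.68 and the adjusted p with limma was 0.0427. With array weights the ratio was -0.51 and the adjusted p with limma 0.0163. Under scaling and under weights, many more features passed in this comparison than in the fit given first. Those counts are given below with Adam3 and Crisp2, and the rise in calls was not particular to Spaca1. Read as channel 1 over channel 2, with no sign changed, the ratio was 0.053.

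**Figure D2:**
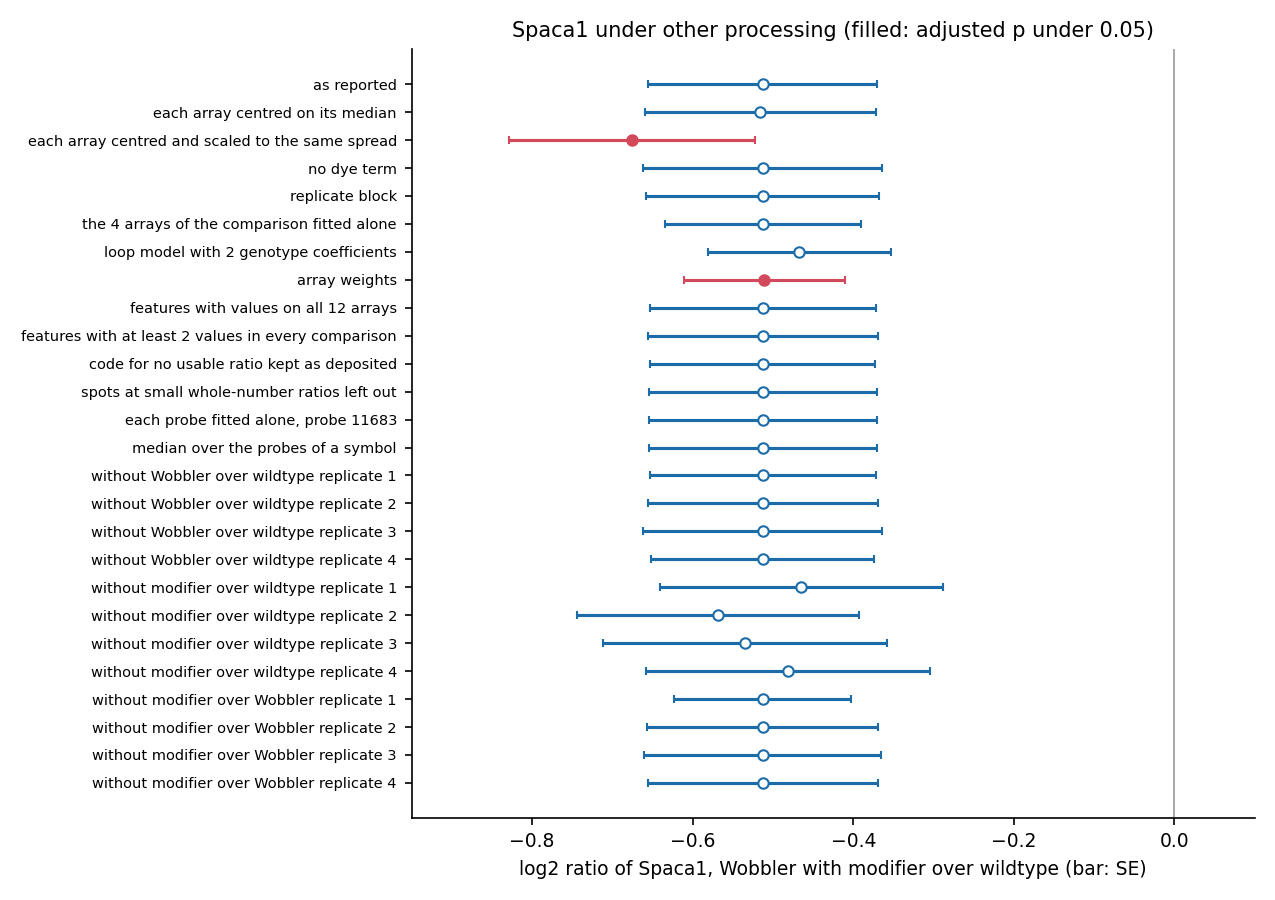
Log2 ratio of Spaca1 in Wobbler with modifier over wildtype (horizontal axis; points are fitted values and bars are SE) under each alternative (vertical axis), leaving out the reading as channel 1 over channel 2. The value lay between -0.68 and -0.46 in all of these, and the 2 filled red points had an adjusted p under 0.05. Their settings also had more features passing in this comparison than the fit given first.

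Spaca1 had log2 ratios of -0.797, -0.076, -0.252 and -0.209 in Wobbler with modifier over Wobbler. Again all 4 lay below 0, as did 6.13% of features, and replicate 1 was far the lowest. The fitted ratio was -0.33 ± 0.14 (SE, n = 4), with a 95% interval from -0.65 to -0.016 and a limma adjusted p of 0.412. Without replicate 1 it was -0.14. Both comparisons contain the modifier RNA and are not independent of each other if pools were shared.

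In Wobbler over wildtype the Spaca1 ratios were 0.225, 0.042, -0.071 and -0.366, on both sides of 0. The fitted ratio was -0.0425 ± 0.143 (SE, n = 4), with a 95% interval from -0.36 to 0.27. Wobbler with modifier over wildtype minus Wobbler over wildtype was -0.47 ± 0.20 (SE, n = 12 arrays), with a limma adjusted p of 0.377, and 0.577% of features passed this test. The direct ratio of Wobbler with modifier over Wobbler and the one found along the loop of comparisons differed by 0.14 ± 0.25 (SE, n = 12 arrays; adjusted p with limma 0.882), and 0.0272% of features passed this test.

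Agfg1, the vesicle fusion protein, had mean log2 ratios over its 2 probes of 0.899, 1.96, 0.105 and -0.085 on replicates 1 to 4 of Wobbler over wildtype. Replicates 1 and 2 were high and the dye-exchanged replicates 3 and 4 lay near 0. The fitted ratio was 0.72 ± 0.22 (SE, n = 4), or 1.65-fold with a 95% interval of 1.17 to 2.31, and a limma adjusted p of 0.19. That SE shares 1 spread across comparisons. The SD over arrays was 0.93 here, 0.38 in Wobbler with modifier over wildtype and 0.32 in Wobbler with modifier over Wobbler. With these 4 arrays fitted alone and no dye term, the ratio was 0.72 ± 0.39 (SE, n = 4; limma adjusted p 0.804). The mean was 1.43 on replicates 1 and 2 and 0.01 on replicates 3 and 4, so the ratio was not found in both dye orientations. The dye term of Agfg1, Cy5 over Cy3, was 0.37 ± 0.13 (SE, n = 12 arrays; limma adjusted p 0.167), above that of 88.5% of features.

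The probes of Agfg1 differed in size. Probe 10921 read 1.064, 3.855, -0.277 and -0.024 in Wobbler over wildtype. Probe 19664 read 0.734, 0.07, 0.487 and -0.146 there. The high value was that of probe 10921 on replicate 2, the array with the wide spread. Without that array the fitted ratio of Agfg1 was 0.39, and the probes fitted alone gave 1.15 and 0.29.

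Agfg1 had ratios of 0.262, 0.151, -0.52 and 0.286 in Wobbler with modifier over wildtype, a fitted 0.0446 ± 0.22 (SE, n = 4). Its ratios were 0.552, 0.284, -0.165 and -0.0025 in Wobbler with modifier over Wobbler, a fitted 0.17 ± 0.22 (SE, n = 4). Both 95% intervals spanned 0, from -0.44 to 0.53 and from -0.32 to 0.66. Leaving out 1 array gave 0.090 to 0.26 in Wobbler with modifier over Wobbler. Wobbler with modifier over wildtype minus Wobbler over wildtype was -0.68 ± 0.31 (SE, n = 12 arrays; limma adjusted p 0.413), and the loop of comparisons was open by 0.84 ± 0.38 (SE, n = 12 arrays; limma adjusted p 0.71). Without replicate 2 of Wobbler over wildtype these Agfg1 values were -0.35 and 0.52.

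Csnk2a2, the kinase subunit, had mean log2 ratios over its probes of 0.358, 0.552, 0.73 and 0.472 in Wobbler over wildtype. All 4 arrays lay above 0, as did 6.03% of features. The mean took in probe 6547 on replicates 3 and 4 only, at 2.995 and 2.063. Its other probes lay between -0.271 and 0.304 on those arrays, so the place of the mean above 0 there rested on probe 6547. The fitted ratio was 0.53 ± 0.21 (SE, n = 4), or 1.44-fold with a 95% interval of 1.04 to 2.0, and a limma adjusted p of 0.28. The mean of probes lay above 0 throughout, while each probe measured on all 4 arrays had at least 1 value below 0.

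Probe 6547 had no value on 3 of 12 arrays, among them replicates 1 and 2 of Wobbler over wildtype. It read 2.995 and 2.063 on replicates 3 and 4 of that comparison, far above the other probes. Probe 16449 read 0.288, 0.128, -0.253 and -0.107 there. Probe 18978 read 0.184, 1.381, 0.304 and -0.271, and probe 20179 read 0.603, 0.148, -0.124 and 0.202. Fitted alone these 3 probes gave 0.014, 0.40 and 0.21, with limma adjusted p of 0.96, 0.332 and 0.417. With the median over probes in place of the mean, the ratio of Csnk2a2 was 0.14.

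Csnk2a2 had ratios of 0.28, 0.27, -0.676 and 0.159 in Wobbler with modifier over wildtype, a fitted 0.00825 ± 0.211 (SE, n = 4). Its ratios were -0.199, 0.194, 0.281 and -0.968 in Wobbler with modifier over Wobbler, a fitted -0.17 ± 0.21 (SE, n = 4). The 95% intervals ran from -0.46 to 0.48 and from -0.64 to 0.30. Probe 6547 read -2.179 on replicate 3 of Wobbler with modifier over wildtype, and -2.752 on replicate 4 of Wobbler with modifier over Wobbler. The other 3 probes lay between -0.476 and 0.46 in these comparisons. Csnk2a1, the paralogous catalytic subunit, had ratios of 2.07, 1.5, 0.0373 and 0.433 in Wobbler over wildtype, a fitted 1.01 ± 0.25 (SE, n = 4; limma adjusted p 0.129). Of its 3 probes, 2 passed the filter when fitted alone and disagreed, with -0.72 for probe 435 and 0.77 for probe 1128. Both lay below the fitted 1.01, and the remaining probe did not pass the filter and was not fitted alone.

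Hsp90b1, the chaperone, had log2 ratios of -0.154, 0.193, -0.445 and -0.371 in Wobbler over wildtype, with replicate 2 above 0 and the others below. The fitted ratio was -0.19 ± 0.15 (SE, n = 4; limma adjusted p 0.534), or 0.874-fold with a 95% interval of 0.69 to 1.11. In Wobbler with modifier over wildtype the values were -0.125, 0.235, -0.413 and 0.033, a fitted -0.0675 ± 0.153 (SE, n = 4) with an interval from -0.41 to 0.27. They were 0.008, 0.582, -0.17 and 0.487 in Wobbler with modifier over Wobbler, a fitted 0.23 ± 0.15 (SE, n = 4) with an interval from -0.11 to 0.57. Leaving out replicate 1 gave 0.36, replicate 2 gave 0.14 and replicate 4 gave 0.079. Over the 3 comparisons the 95% intervals of Hsp90b1 lay between 0.69-fold and 1.48-fold. Wobbler with modifier over wildtype minus Wobbler over wildtype was 0.13 ± 0.22 (SE, n = 12 arrays; limma adjusted p 0.835) for Hsp90b1, and -0.52 ± 0.30 (SE, n = 12 arrays; limma adjusted p 0.523) for Csnk2a2. Without replicate 3 of Wobbler with modifier over wildtype the Csnk2a2 value was -0.31, and leaving out 1 array gave 0.039 to 0.22 for Hsp90b1.

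**Figure D3:**
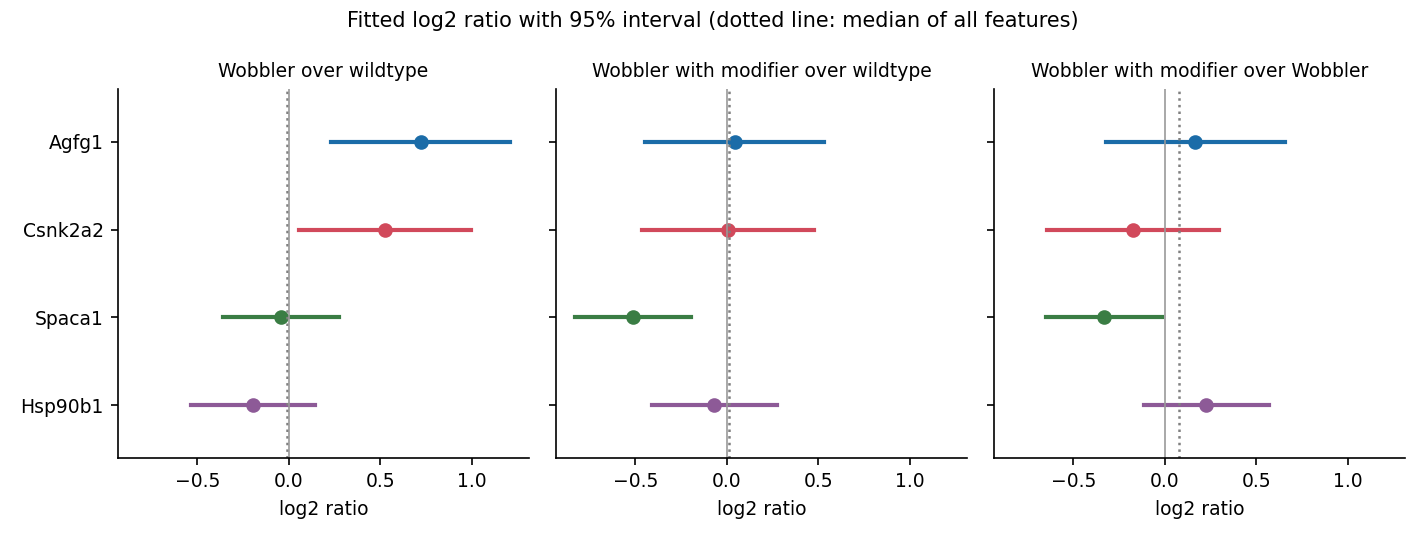
Fitted log2 ratio (horizontal axis) of each gene in each comparison, with points for the fitted value, bars for the 95% interval and a dotted line for the median of all features. The Spaca1 interval lies below 0 in both comparisons with the modifier, from -0.83 to -0.20 and from -0.65 to -0.016, and none of the 12 values had an adjusted p under 0.05.

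Over the 4 genes the median ratio was 0.24 in Wobbler over wildtype, -0.03 in Wobbler with modifier over wildtype and -0.0028 in Wobbler with modifier over Wobbler. The medians of all features were -0.007, 0.0123 and 0.0776. Across the 12 arrays the ratios of the 4 genes correlated at r from -0.29 for Csnk2a2 and Hsp90b1 to 0.41 for Agfg1 and Spaca1. These points share arrays and dye orientation, and the values describe them only.

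Other genes whose loss disturbs acrosome formation did not pass either. Of 22 such genes listed, 16 were tested and 0 passed in any comparison with limma, while 0, 3 and 2 had an unadjusted p under 0.05 in Wobbler over wildtype, Wobbler with modifier over wildtype and Wobbler with modifier over Wobbler. Their median was 0.0194 in Wobbler over wildtype, -0.084 in Wobbler with modifier over wildtype and -0.17 in Wobbler with modifier over Wobbler. Actl7a, an actin-related protein of the subacrosomal layer, had ratios of -0.323, -0.371, -0.86 and -0.78 in Wobbler with modifier over wildtype, a fitted -0.58 ± 0.15 (SE, n = 4; limma adjusted p 0.178). It lay below 0 on every array of that comparison, as Spaca1 did. Spata16, a Golgi protein of spermatids, was at -0.74 there, with replicate 2 at 0.497 and replicates 3 and 4 at -1.574 and -1.321. Actl9, related to Actl7a, was at -1.52 in Wobbler with modifier over Wobbler, with -2.365, -0.127 and -1.964 on its 3 arrays and a fitted -0.98 without replicate 2.

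Contents and surface proteins of the acrosome were lower in median, with 0 of 12 tested genes passing with limma and 1, 3 and 3 at an unadjusted p under 0.05 in that order of comparisons. The median was -0.0791 in Wobbler over wildtype, -0.39 in Wobbler with modifier over wildtype and -0.36 in Wobbler with modifier over Wobbler. The 12 ratios ran from -0.58 to 1.15, from -0.86 to 0.19 and from -0.68 to 1.25 in these comparisons. In Wobbler with modifier over wildtype 10 of the 12 lay below 0. The highest values in the other comparisons were those of Dkkl1 and Prss21, named after their values were seen. Dkkl1 read 0.486, 4.681, -0.715 and 0.132 in Wobbler over wildtype. Prss21 read 2.046, 0.499, 3.812 and -1.353 in Wobbler with modifier over Wobbler. The gene with an unadjusted p under 0.05 with limma in Wobbler over wildtype was Adam1a, at 0.70 (limma adjusted p 0.317). It read 1.89, -0.0455, -0.042 and 0.99 on replicates 1 to 4 there, so the ratio rested on replicates 1 and 4. In Wobbler with modifier over wildtype Adam1a was at -0.65. It is a member of the same protein family as Adam3 and was named after its values were seen. Adam3, a sperm surface protein needed for sperm migration, was at -0.68 ± 0.15 (SE, n = 4; limma adjusted p 0.0893) in Wobbler with modifier over wildtype, and below 0 on all 4 arrays. Crisp2, a secretory protein of the acrosome, was at -0.86 ± 0.24 (SE, n = 4; limma adjusted p 0.226) there. Acrv1, of the acrosomal matrix, was at -0.66 in Wobbler with modifier over Wobbler, and at -0.42 without replicate 1. Adam3 passed with arrays scaled to equal spread, with array weights and with the loop model, at limma adjusted p of 0.00884, 0.00551 and 0.0169, and Actl7a at 0.0214, 0.00448 and 0.0297. Crisp2 passed with scaling and with weights, at limma adjusted p of 0.00781 and 0.00179, and without replicate 2 of Wobbler over wildtype, at 0.0215. In Wobbler with modifier over wildtype, 483 features passed with scaling, 709 with weights, 224 with the loop model and 154 without that array. The fit given first had 108 of 14729.

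**Figure D4:**
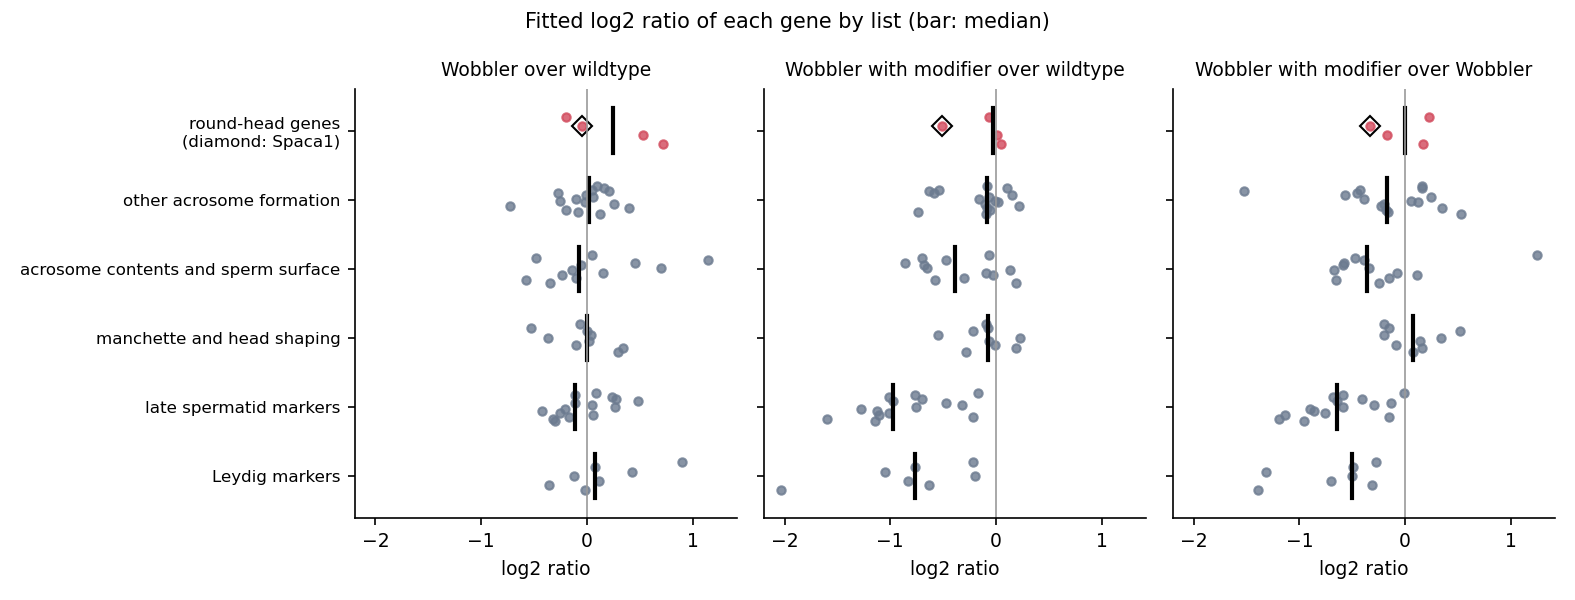
Fitted log2 ratio (horizontal axis) of every tested gene by list (vertical axis) in the 3 comparisons, with a black bar for each median; red points are Agfg1, Csnk2a2, Spaca1 and Hsp90b1, and the diamond is Spaca1. In Wobbler with modifier over wildtype the Spaca1 point, at -0.51, lies between the medians of the acrosome contents, at -0.39, and of the late spermatid markers, at -0.97.

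Genes of the manchette and of head shaping, which model the nucleus, had 0 of 9 passing and 0, 1 and 1 at an unadjusted p under 0.05, with medians of -0.004, -0.073 and 0.0769 in Wobbler over wildtype, Wobbler with modifier over wildtype and Wobbler with modifier over Wobbler. Meig1, of the manchette, was at -0.55 ± 0.15 (SE, n = 4; limma adjusted p 0.211) in Wobbler with modifier over wildtype. It passed with scaling and with weights, at limma adjusted p of 0.018 and 0.0131, where 483 and 709 features passed against 108 in the fit given first. Sun3, a nuclear envelope protein tied to the manchette, was at 0.51 in Wobbler with modifier over Wobbler and at 0.33 without replicate 4, and Hook1, a microtubule linker, at 0.29 in Wobbler over wildtype.

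Partners of Vps54 and other genes of retrograde traffic had 0 of 8 passing and 2, 1 and 1 at an unadjusted p under 0.05, with medians of 0.17, 0.0574 and 0.13 in that order of comparisons. Stx16, a SNARE of the Golgi, was at 1.43 in Wobbler over wildtype, with 5.075 on replicate 2, while its other arrays reached no more than 1.041. Without replicate 2 the fitted ratio of Stx16 was 0.30. M6pr, a receptor that sorts lysosomal enzymes, was at 0.53 in Wobbler over wildtype on 3 arrays, and at 0.26 without replicate 1. Rab6a, a Golgi GTPase, was at 0.43 in Wobbler with modifier over Wobbler, and at 0.26 without replicate 1. Chaperones of the endoplasmic reticulum and paralogs of Hsp90b1 had 0 of 15 passing and 2, 1 and 1 at an unadjusted p under 0.05, with medians of 0.16, -0.0333 and 0.0863. Creld2, a stress-induced protein of the endoplasmic reticulum, was at 0.70 in Wobbler over wildtype, with 0.775, 2.295, -0.134 and -0.128 on replicates 1 to 4 and a fitted 0.30 without replicate 2. Trap1, the mitochondrial Hsp90, was at -0.355 there and at -0.23 without replicate 2. Pdia6, a disulfide isomerase, was at -0.35 in Wobbler with modifier over Wobbler, with -0.01, 0.103, -0.561 and -0.936 on replicates 1 to 4. Its low values were thus on the dye-exchanged arrays.

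Markers of some cell types fell in the comparisons in which Spaca1 lay below 0 on every array. Of 15 late spermatid markers, 8 fell in Wobbler with modifier over wildtype (median -0.97, from -1.60 to -0.17) and 5 in Wobbler with modifier over Wobbler (median -0.64, from -1.20 to -0.0073). Over all features 0.699% and 0.299% were lower in these comparisons. The marker lists were chosen with earlier results of these data known, so their counts describe the lists and are no independent test. In Wobbler over wildtype 0 of the 15 passed, with a median of -0.11. Leydig markers had 2 of 7 lower in Wobbler with modifier over wildtype (median -0.77) and 1 of 7 lower in Wobbler with modifier over Wobbler (median -0.50). Among spermatocyte markers 1 of 4 (median -0.27) and among macrophage markers 1 of 5 (median -0.26) fell in Wobbler with modifier over wildtype. Sertoli markers had 0 of 7 passing and 2 at an unadjusted p under 0.05 (median -0.12), epididymis markers 0 of 4 (median -0.17) and blood markers 0 of 2 (median -0.16) in that comparison. The part of these markers in the Spaca1 ratio was not tested, and in whole testis fewer spermatids and less RNA per spermatid cannot be told apart.

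The genes most like each measured gene over the 12 arrays, among 8045 named features, are given as a description. Agfg1 was most like Ubl5 (r = 0.965) and Ist1 (r = 0.965), and Csnk2a2 most like Atp6v1d (r = 0.912) and 2410004B18Rik (r = 0.885). Spaca1 was most like Rad17 (r = 0.886) and Lynx1 (r = 0.864), and Hsp90b1 most like Tmem19 (r = 0.895) and Katna1 (r = 0.887). The points share arrays and dye orientation, and each r is the highest or next highest of 8045. For Agfg1 the highest of the 12 values was 1.96, on replicate 2 of Wobbler over wildtype, the array with the wide spread. How far its r values rest on that array was not tested.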

How the data were processed

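The authors deposited 1 log2 ratio per spot for each array. How the spots were scanned, corrected for background and normalized is not stated in the labels. Base 2 was inferred from the values; their scale, centring and direction are unstated. A repeated value between 15 and 17 on each array was read as a code for no usable ratio and set to missing. Replicates 3 and 4 were multiplied by -1, since the loop of comparisons closed better for the reading as Cy5 over Cy3 (r = 0.178 over 14975 probes) than as channel 1 over channel 2 (r = 0.0104). Arrays of Wobbler over wildtype and Wobbler with modifier over wildtype of one dye orientation correlated at r from -0.0266 to 0.111.

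Gene symbols came from the platform annotation: 14030 of 20355 probes had 1 symbol, 5 several and 6320 none. Gene identifiers matched a RefSeq gene table (GRCm38.p6) for all but 36 probes with a symbol, and 0 symbols changed. Probes of 1 symbol were averaged per array, and features with at least 3 of 4 values in every comparison were tested, 14729 in all. Of the 8 probes of interest, 7 passed that filter alone and all 4 genes passed it after averaging. Features were fitted with limma 3.58.1 (lmFit and eBayes in R 4.3.3) over all 12 arrays, with 1 mean per comparison and 1 dye term. A run on simulated data required only that the mean estimates match added shifts of known size. Those data held no dye effect and no shared pools, and no limit was set on false calls. A feature passed at a Benjamini-Hochberg adjusted p below 0.05. SEs come from the fit, which estimates 1 spread for a feature across comparisons, and n counts arrays. Depth is not recorded for arrays, and their number limits the precision.

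The genes and lists were chosen with earlier results of these data known. From each pathway list the genes past the threshold and up to 3 more with the smallest p were named. For likeness, the 2 highest correlations per gene were taken. Alternatives changed centring, scaling, the dye term, weights, filters, the model, probe averaging, the reading of the ratio and the arrays used.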

Additional observations from a re-analysis of the deposited data

Results flagged for a closer look

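On 5 of 42 groups of 4 arrays examined, 1 array stood far from the other 3, where chance gives about 1 in 20. In Wobbler with modifier over wildtype, 4 of the 5 were on replicate 3, and the groups of a gene and of its probe overlap. Agfg1 was at -0.52 on that array and at 0.151 to 0.286 on the others, and its probe 10921 was at -0.64. Csnk2a2 was at -0.676, and its probe 6547 was at -2.179. In Wobbler with modifier over Wobbler, Sun3 was at -0.019 on replicate 3 and at 0.635 to 0.741 on the others.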

How the results depend on the processing

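No gene of the 4 passed under any of the alternatives run except Spaca1, as given above. Counts of features past the threshold moved more. With arrays scaled to equal spread they were 23 in Wobbler over wildtype, 483 in Wobbler with modifier over wildtype, 267 for the difference of the ratios to wildtype and 0 for loop closure. With no dye term they were 24 in Wobbler over wildtype, 46 in Wobbler with modifier over wildtype, 7 in Wobbler with modifier over Wobbler and 14 for the difference. With the 4 arrays of a comparison fitted alone they were 0, 4 and 0 in that order of comparisons, with the loop model 0, 224 and 210, and with each probe fitted alone 87, 165 and 110. Array weights gave 22 in Wobbler over wildtype and 709 in Wobbler with modifier over wildtype, and the reading as channel 1 over channel 2 gave 0 in each comparison. Leaving out 1 array gave 18 to 54, 20 to 154 and 0 to 128 in the 3 comparisons, 9 to 70 for the difference and 2 to 4 for loop closure. Same-numbered arrays of different comparisons deviated together at r from -0.0265 to 0.0637, so the numbers were not taken to pair the arrays. With the replicate number as a block the counts were 22, 58, 24, 18 and 1, and no call of the 4 genes differed.

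Some signs turned. In Wobbler over wildtype, the reading as channel 1 over channel 2 gave Csnk2a2 -0.073, Spaca1 0.18 and Hsp90b1 0.21. In Wobbler with modifier over wildtype it gave Spaca1 0.053, Hsp90b1 0.12, Spata16 0.71, Actl7a 0.24, Adam3 0.040, Crisp2 0.17 and Meig1 0.29, and in Wobbler with modifier over Wobbler it gave Csnk2a2 0.17 and Pdia6 0.40. The loop model gave Agfg1 -0.11 in Wobbler with modifier over Wobbler. For Csnk2a2, probes 6547 and 16449 alone gave -0.058 and -0.050 in Wobbler with modifier over wildtype. Probes 18978 and 20179 alone gave 0.13 and 0.095, and the median over probes 0.026, in Wobbler with modifier over Wobbler. Probe 435 alone gave Csnk2a1 -0.72. Leaving out 1 array gave Agfg1 -0.19 to 0.15, Csnk2a2 -0.094 to 0.22 and Hsp90b1 -0.16 to 0.012 in Wobbler with modifier over wildtype. It gave Csnk2a2 -0.39 to 0.080 in Wobbler with modifier over Wobbler, Spaca1 -0.13 to 0.063 in Wobbler over wildtype and Hsp90b1 -0.048 to 0.23 for loop closure. The cause was not tested. The median over probes, and the fit of probes with at least 2 values per comparison, were chosen after seeing the data.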
